A study of Mus musculus with 14 samples.

Results

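The genes described here are 32 genes of cholesterol and fatty acid synthesis, chosen by name from the array's gene names. They comprise 7 enzymes of the mevalonate steps, 11 of the sterol steps, 6 regulators or carriers of sterols and 8 enzymes of fatty acid synthesis and desaturation. All 32 were found among the 36413 gene names on the array, and all 32 were well above background in each of the 7 groups and entered the tests. The study profiled D2A1 mouse breast cancer cells and mouse embryonic fibroblasts (MEFs) after they had been kept together for 72 h and then separated by flow sorting. Each cell type was also profiled after growth by itself. There were 14 arrays of 1 colour, 2 for each of 7 groups: D2A1 cells from co-culture with Hsf1 null MEFs, D2A1 cells from co-culture with wild-type (WT) MEFs, D2A1 cells alone, Hsf1 null MEFs from co-culture with D2A1 cells, Hsf1 null MEFs alone, WT MEFs from co-culture with D2A1 cells, and WT MEFs alone. All cells were grown in DMEM with 10% fetal calf serum. Where the D2A1 cells were profiled, the MEFs in the co-culture had first received 10 µg/ml mitomycin C for 2 h, so both co-cultured D2A1 groups had treated MEFs beside them and the D2A1 cells alone had none. The deletion of Hsf1, which encodes the heat shock transcription factor HSF1, was carried only by the MEFs. The sources used here do not say whether replicates A and B were separate cultures, or how many embryos gave the MEFs, so p-values here reflect the variation among these arrays alone.

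Cholesterol is built from acetyl-CoA through mevalonate and squalene, and fatty acids are built from acetyl-CoA by acetyl-CoA carboxylase and fatty acid synthase and then elongated and desaturated. Transcription of most of these enzymes is driven by the sterol regulatory element binding proteins (SREBPs), which are made as membrane precursors and escorted by SCAP from the endoplasmic reticulum for cleavage. When sterols are plentiful, INSIG proteins hold SCAP and the precursor back, so the level of this gene set is widely used as a readout of how much sterol a cell senses.

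Promoter sequence is shown as a description of the 32 genes, called or not. SREBP target promoters typically combine a sterol regulatory element with sites for the factors NF-Y and Sp1. Whether such sites bear on the differences in level was not tested. The 250 bases before the start site were taken from RefSeq promoter windows (build GRCm38.p6), which held 25 of the 32 genes. The letters TCACNCCAC (a form of the sterol regulatory element), CCAAT (NF-Y), GGGCGG (Sp family) and CACGTG (an E-box) were searched on both strands, counting overlapping matches. TCACNCCAC was present in 1 of the 25 genes, or 4% of them, against 1.22% of all 27025 genes with a window, and the gene was Hmgcs1. CCAAT was present in 19 of the 25 genes (76%, against 37.5% of all genes), GGGCGG in 21 (84%, against 35.4%) and CACGTG in 5 (20%, against 6.86%). No gene that passed the threshold in D2A1 cells with Hsf1 null MEFs against D2A1 cells alone held TCACNCCAC, so the planned choice gave no sequence, and the 5 printed here were chosen after the values were seen. They are Hmgcs1 and the 4 genes of smallest p in that comparison that held both CCAAT and GGGCGG. Their windows are chr13:119690101-119690350 (plus strand) for Hmgcs1, chr5:4104698-4104947 (minus strand) for Cyp51, chrX:72918271-72918520 (plus strand) for Nsdhl, chr5:28071162-28071411 (plus strand) for Insig1 and chr10:76531355-76531604 (plus strand) for Lss. Each runs 5′ to 3′ up to the base before the start site, and capitals mark every match to the motifs on either strand, of which none overlapped another in these windows.
Hmgcs1: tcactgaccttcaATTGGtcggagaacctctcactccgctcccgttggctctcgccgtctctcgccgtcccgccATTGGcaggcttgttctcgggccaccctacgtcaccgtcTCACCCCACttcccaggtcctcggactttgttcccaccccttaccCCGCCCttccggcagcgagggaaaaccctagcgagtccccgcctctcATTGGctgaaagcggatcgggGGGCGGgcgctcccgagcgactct
Cyp51: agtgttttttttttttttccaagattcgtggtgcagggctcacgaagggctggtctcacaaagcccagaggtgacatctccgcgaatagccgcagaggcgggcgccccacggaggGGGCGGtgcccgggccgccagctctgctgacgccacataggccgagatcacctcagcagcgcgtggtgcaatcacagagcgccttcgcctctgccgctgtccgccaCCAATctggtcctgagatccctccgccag
Nsdhl: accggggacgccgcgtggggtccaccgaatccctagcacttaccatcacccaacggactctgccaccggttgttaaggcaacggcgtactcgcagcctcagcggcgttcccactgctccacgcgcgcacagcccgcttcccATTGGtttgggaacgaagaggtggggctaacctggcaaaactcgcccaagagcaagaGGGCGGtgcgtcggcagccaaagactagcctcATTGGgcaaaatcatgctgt
Insig1: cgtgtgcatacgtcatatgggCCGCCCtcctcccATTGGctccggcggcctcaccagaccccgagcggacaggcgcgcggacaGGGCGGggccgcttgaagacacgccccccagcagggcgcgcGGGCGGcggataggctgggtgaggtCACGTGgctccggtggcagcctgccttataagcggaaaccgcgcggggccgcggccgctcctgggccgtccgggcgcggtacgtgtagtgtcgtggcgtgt
Lss: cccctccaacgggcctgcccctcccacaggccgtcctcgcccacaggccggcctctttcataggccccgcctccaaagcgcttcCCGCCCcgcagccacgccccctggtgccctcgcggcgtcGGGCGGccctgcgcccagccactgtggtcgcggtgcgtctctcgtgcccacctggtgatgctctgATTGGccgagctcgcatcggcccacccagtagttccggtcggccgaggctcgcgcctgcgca
CCAAT appears as ATTGG and GGGCGG as CCGCCC where the match is on the other strand. A match is a description of letters, and binding was not measured.

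Hsf1 itself checked the genotype labels. Its level (log2 of the array signal in the authors' deposited table, as for every level here) was 10.07 and 9.97 in Hsf1 null MEFs alone, against 12.01 and 11.69 in WT MEFs alone. It was 10.52 and 10.67 in Hsf1 null MEFs from co-culture, against 12.05 and 12.04 in WT MEFs from co-culture. The null MEFs were lower on both arrays of each pair.

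The sorted fractions each carried signal of the partner cell type, and this bears on every co-culture value. This signal was estimated from genes far higher in the partner cell type sorted from co-culture than in the sample's own cell type grown alone. Mitomycin C is listed only for the co-cultures from which D2A1 cells were profiled. The partner fraction was therefore taken from a co-culture that differed in this treatment, and its effect on the shares was not tested. MEF signal came to 9.73% and 24.3% in D2A1 cells from co-culture with Hsf1 null MEFs (replicates A and B). It came to 7.46% and 7.40% in D2A1 cells from co-culture with WT MEFs. The partner fractions were themselves mixed, and genes raised by co-culture in both cell types could enter, so the shares are rough. Tumor signal in the MEF fractions was 11.1% and 10.8% for Hsf1 null MEFs and 41.6% and 43.7% for WT MEFs. Of 14 fibroblast markers, 12 were well above background in D2A1 cells with Hsf1 null MEFs (Thy1 and Lum were not), and 8 were so in D2A1 cells alone. The summed linear signal of the 14 was 71808 and 203608 in D2A1 cells with Hsf1 null MEFs, 86026 and 83020 with WT MEFs, and 7751 and 8085 alone. Of 14 epithelial markers, 7 were well above background in D2A1 cells alone, where Epcam, Cdh1, Krt19, Cldn4, Grhl2, Ovol1 and Ocln were not. In MEFs alone 7 (WT) and 10 (null) of the 14 were also well above background. The summed signal of the 14 epithelial markers was 94732 and 98509 in D2A1 cells alone. It was 1425 and 1592 in WT MEFs alone and 4909.5 and 5907.2 in null MEFs alone. In sorted bulk samples like these, fewer cells of a type and less RNA per cell cannot be told apart. Results are therefore given also after the estimated partner share had been subtracted on the linear scale.

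**Figure D1:**
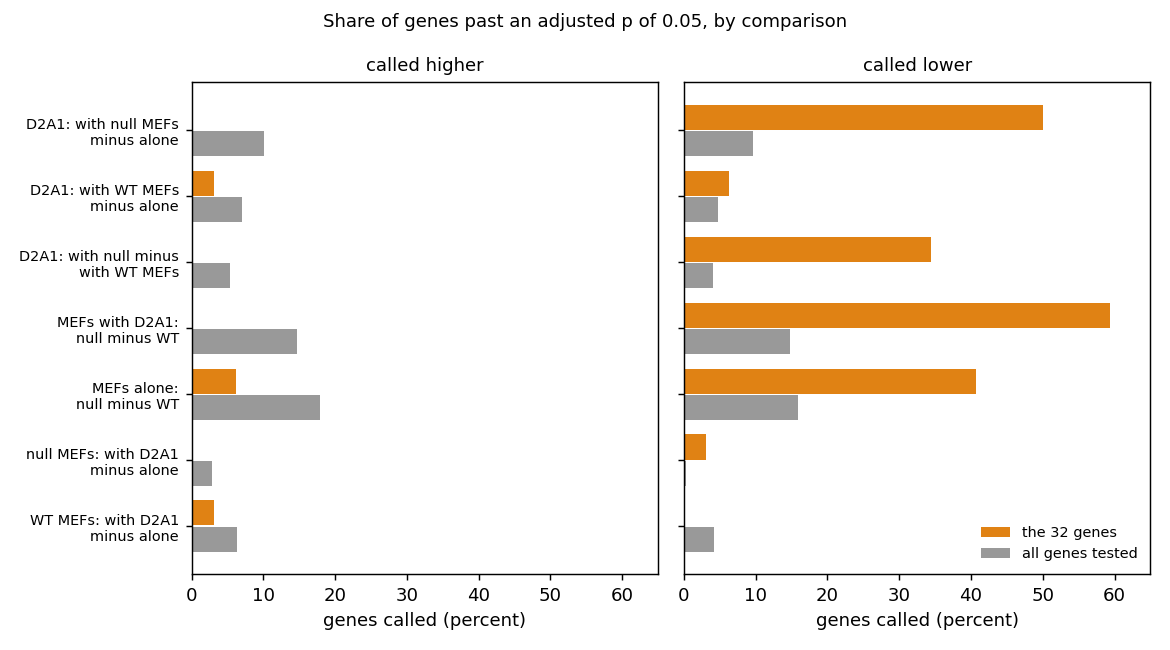
Percent of genes past an adjusted p of 0.05 (horizontal axis) in each comparison (rows), higher on the left and lower on the right. Orange bars are the 32 genes and gray bars all genes tested; the longest orange bars are those for lower levels, in D2A1 cells with Hsf1 null MEFs and in Hsf1 null against WT MEFs.

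D2A1 cells that had grown with Hsf1 null MEFs had lower levels of cholesterol and fatty acid synthesis genes than D2A1 cells alone. Of the 32 genes, 16 were lower and 0 higher at an adjusted p under 0.05 (limma, adjusted over all 25896 genes tested), where 9.6% of all genes were lower and 10.1% higher. The 16 genes span all 4 roles: 3 of 7 mevalonate enzymes, 6 of 11 sterol enzymes, 3 of 6 regulators or carriers and 4 of 8 fatty acid enzymes. The median difference of the 32 genes was -0.45 on the log2 scale, a ratio of 0.734, against -0.09 over all genes tested. The difference was negative for 30 of 32 genes, and 30 had the same sign on both slides. At an unadjusted p under 0.05, 26 genes were lower and 1 higher. Shares of all genes at that unadjusted cutoff, and shares by sign, are not given here or below.

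The strongest member by p was Elovl6, the elongase that makes stearate from palmitate. Its level was 12.63 and 12.55 in D2A1 cells with Hsf1 null MEFs, 13.34 and 13.40 with WT MEFs and 13.41 and 13.64 alone. Both arrays with Hsf1 null MEFs lay below every other D2A1 array. The difference from D2A1 cells alone was -0.93 ± 0.11 (fitted log2 difference ± standard error, n = 2 against 2), or 1.91-fold lower, with an adjusted p of 0.000169. Fads2, a desaturase of polyunsaturated fatty acid synthesis, stood at 9.73 and 9.70 with Hsf1 null MEFs, 9.84 and 10.03 with WT MEFs and 10.55 and 10.39 alone. Its arrays from both kinds of co-culture lay below those of cells alone, by -0.75 ± 0.12 with Hsf1 null MEFs (adjusted p = 0.00211). Scd2, a stearoyl-CoA desaturase, read 15.77 and 15.41 with Hsf1 null MEFs, 16.17 and 16.39 with WT MEFs and 16.21 and 16.31 alone. Both arrays with Hsf1 null MEFs lay below the other 4, at -0.67 ± 0.13 against cells alone (adjusted p = 0.00604), and its replicate B was lower than A. Fasn, the fatty acid synthase, also fell, with 9.20 and 9.27 with Hsf1 null MEFs against 9.82 and 9.99 alone (-0.67 ± 0.16, adjusted p = 0.0138).

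Among the sterol enzymes the largest fall was that of Cyp51, the lanosterol demethylase. Cyp51 was at 10.08 and 9.997 with Hsf1 null MEFs, 10.78 and 11.05 with WT MEFs and 11.10 and 11.12 alone, so the Hsf1 null co-culture lay apart from all other D2A1 arrays. It was 2.11-fold lower than in cells alone (-1.07 ± 0.18, adjusted p = 0.00226). With WT MEFs the difference was -0.20 ± 0.18, with a 95% interval of -0.60 to 0.20 (adjusted p = 0.541). Nsdhl, a sterol dehydrogenase that acts with it in removing methyl groups, had 9.06 and 8.75 with Hsf1 null MEFs, 9.41 and 9.58 with WT MEFs and 9.59 and 9.63 alone. Its groups with Hsf1 null MEFs and alone did not overlap, and the difference was -0.70 ± 0.13 (adjusted p = 0.00370). Lss, which closes the sterol rings, was at 10.87 and 10.58 with Hsf1 null MEFs, 11.06 and 10.98 with WT MEFs and 11.62 and 11.39 alone. Here the co-cultures lay closer to each other than to cells alone, and the difference with Hsf1 null MEFs was -0.78 ± 0.16 (adjusted p = 0.00758). Sqle, the squalene epoxidase, fell by less (-0.46 ± 0.12), as did the keto reductase Hsd17b7 (-0.38 ± 0.12), whereas the desaturase Sc5d had -0.67 ± 0.18.

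The other 5 sterol enzymes did not pass the threshold, and their values ranged from -0.46 for Ebp, a sterol isomerase, to 0.28 for Tm7sf2, a sterol reductase. Tm7sf2 ran against the rest of its role. It was at 9.93 and 9.92 with Hsf1 null MEFs, 10.46 and 10.45 with WT MEFs and 9.68 and 9.63 alone, so that both co-cultures were above cells alone. Its difference with Hsf1 null MEFs was 0.28 ± 0.10 with an adjusted p of 0.0730. Tm7sf2 was also far higher in MEFs than in D2A1 cells, and after subtraction of the MEF share 0 of the 32 genes were called higher in either D2A1 co-culture. Against cells alone Tm7sf2 then had 0.63 with WT MEFs (adjusted p = 0.116) and -0.33 with Hsf1 null MEFs (adjusted p = 0.303).

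In the mevalonate steps all 7 enzymes were lower and 3 passed the threshold. Idi1, the isopentenyl diphosphate isomerase, was at 12.22 and 12.07 with Hsf1 null MEFs, against 12.82 and 12.90 alone (-0.71 ± 0.15, adjusted p = 0.00851). Mvd, the decarboxylase that makes isopentenyl diphosphate, was at 10.98 and 10.86 with Hsf1 null MEFs, against 11.65 and 11.49 alone (-0.65 ± 0.16, adjusted p = 0.0196). Mvk, the mevalonate kinase, was at 13.18 and 12.997 with Hsf1 null MEFs, against 13.56 and 13.66 alone (-0.52 ± 0.12, adjusted p = 0.0141). None of these 3 overlapped between the groups. Like other genes described as without overlap, they were picked by p on the same arrays, so this adds no support. The values for the thiolase Acat2, the HMG-CoA synthase Hmgcs1, the kinase Pmvk and the prenyl synthase Fdps were -0.44, -0.40, -0.35 and -0.39, with adjusted p between 0.0556 and 0.0864.

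Of the regulators, Insig1, an SREBP target that retains SCAP, was at 9.52 and 9.26 in D2A1 cells with Hsf1 null MEFs, 10.06 and 9.89 with WT MEFs and 10.18 and 10.40 alone. Replicate B was the lowest of the 6 arrays, and the lowest array of cells alone lay above all 4 co-culture arrays (-0.90 ± 0.17 with Hsf1 null MEFs, adjusted p = 0.00441). Srebf2, which encodes the SREBP of cholesterol synthesis, was at 10.48 and 10.17 with Hsf1 null MEFs, 10.55 and 10.79 with WT MEFs and 11.19 and 11.02 alone, a difference of -0.78 ± 0.16 with Hsf1 null MEFs (adjusted p = 0.00822). Stard4, which carries sterol between membranes, fell by a similar amount (-0.77 ± 0.17, adjusted p = 0.00906). Srebf1, which encodes the SREBPs of fatty acid synthesis, and Scap had -0.16 and -0.16 and did not pass. Insig2, the second INSIG gene, was the other member with a positive value, at 11.96 and 11.86 with Hsf1 null MEFs, against 11.70 and 11.90 alone (0.11 ± 0.10, adjusted p = 0.484), and these groups overlapped.

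**Figure D2:**
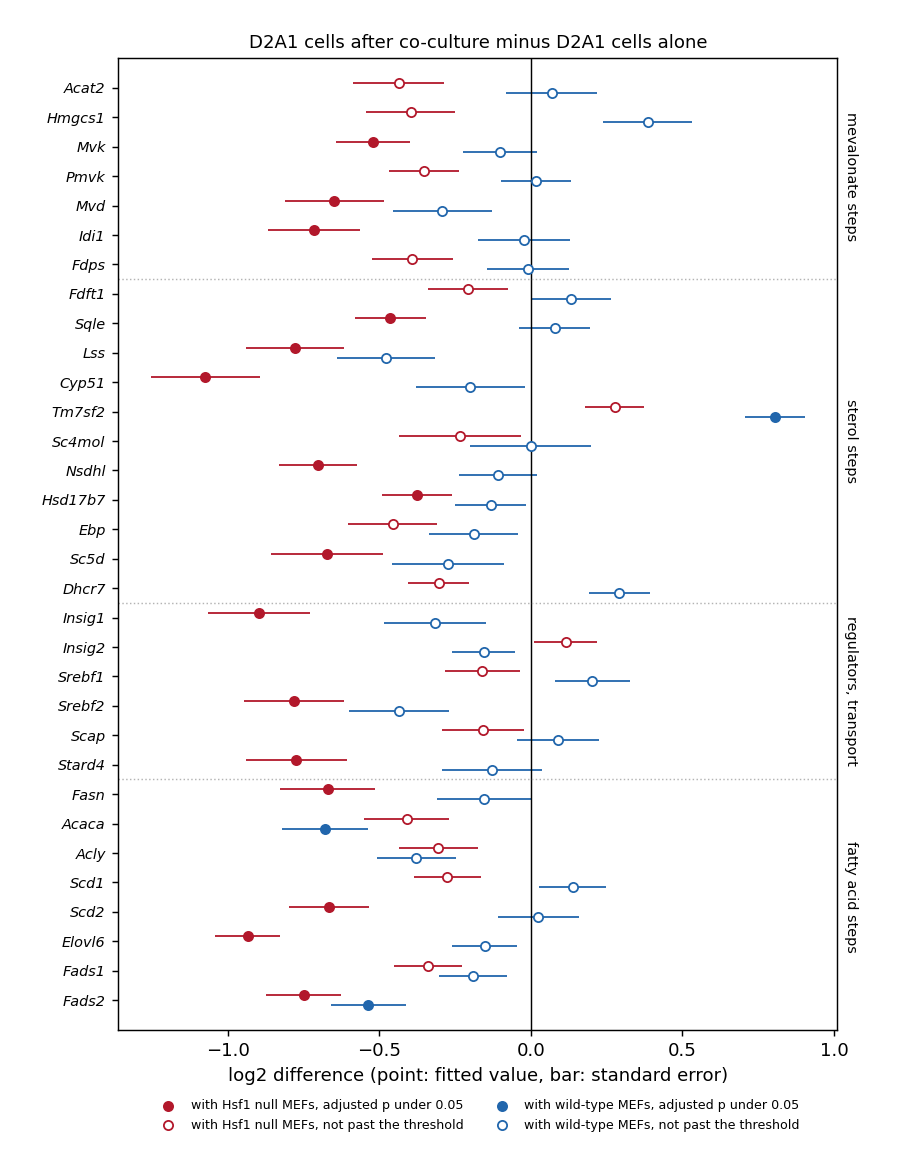
Fitted log2 difference of each of the 32 genes (rows, by role) in D2A1 cells from co-culture minus D2A1 cells alone, with bars of 1 standard error. Red points (Hsf1 null MEFs) lie left of 0 for 30 of 32 genes and 16 are filled (adjusted p under 0.05), and blue points (WT MEFs) have 3 filled. Both colours use the same 2 arrays of cells alone.

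The count depended on which arrays were used. The median of the 32 genes stayed between -0.57 and -0.41 when 1 array was left out. With the slide as a block the count was 21. It was 6 without replicate B of the D2A1 cells with Hsf1 null MEFs, the array with the 24.3% MEF share, and 10 without replicate A of D2A1 cells alone. In D2A1 cells with Hsf1 null MEFs replicate A was higher than replicate B in 24 of the 32 genes, with a median A minus B of 0.11, and in D2A1 cells alone in 12 of the 32, with a median of -0.03. After subtraction of the partner share 18 genes were lower and 0 higher, with a median of -0.59, which was -0.47 relative to the median of all genes. With the block that relative value was -0.36. The shares of all genes called in these settings are not given here. All 16 interferon-stimulated genes listed were higher in D2A1 cells with Hsf1 null MEFs, with summed linear signals of 366714 and 457462, against 8592 and 7633 in D2A1 cells alone. Their part in the lower lipid genes was not tested.

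**Figure D3:**
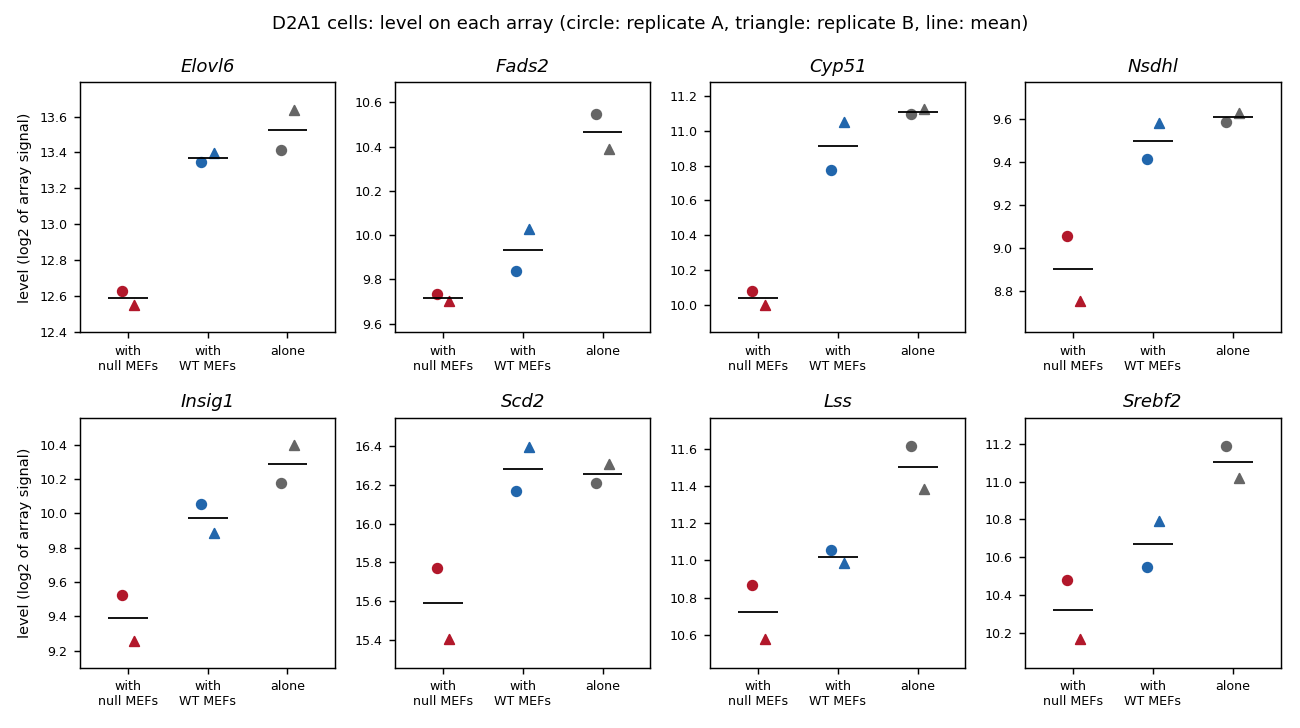
Log2 level on each D2A1 array for the 8 genes lower with Hsf1 null MEFs with the smallest p (circles replicate A, triangles replicate B, lines group means; each panel has its own vertical axis). In all 8 panels both arrays with Hsf1 null MEFs lie below both arrays of cells alone, and the genes were chosen by p on these same arrays.

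D2A1 cells with WT MEFs, set against the same D2A1 cells alone, gave few calls among these genes: 1 was higher, where 7.04% of all genes were, and 2 were lower, where 4.77% were. The higher one was Tm7sf2 (0.81 ± 0.10, adjusted p = 0.000468), whose arrays are given above. The lower ones were Acaca, the acetyl-CoA carboxylase, and Fads2. Acaca was at 8.80 and 9.03 with WT MEFs, against 9.49 and 9.69 alone, a difference of -0.68 ± 0.14 (adjusted p = 0.0111). With Hsf1 null MEFs it was at 9.28 and 9.08, also below both arrays of cells alone. Fads2 differed by -0.54 ± 0.12 (adjusted p = 0.0189). Without replicate A of the D2A1 cells with WT MEFs the count of calls was 1, and after subtraction of the partner share 0 genes were higher and 2 lower. The median of the 32 genes was -0.12, against -0.04 over all genes. Intervals still allowed falls for single genes, such as -0.39 to 0.08 for Elovl6 and -0.69 to 0.06 for Insig1.

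The direct comparison of the co-cultures set D2A1 cells grown with Hsf1 null MEFs against those grown with WT MEFs. The Hsf1 genotype cannot be told apart here from any other difference between the null and WT MEFs. Of the 32 genes, 11 were lower with Hsf1 null than with WT MEFs and 0 were higher, against 4.11% and 5.38% of all genes, and 29 of 32 values were negative with a median of -0.39. Elovl6 (-0.78 ± 0.11, adjusted p = 0.00116), Scd2 (-0.69 ± 0.13), Cyp51 (-0.87 ± 0.18) and Nsdhl (-0.59 ± 0.13) were again among the lower ones, on the arrays given above. Hmgcs1, the synthase at the entry to the mevalonate steps, was at 13.92 and 13.88 with Hsf1 null MEFs, against 14.49 and 14.87 with WT MEFs and 14.36 and 14.24 alone. The difference between the co-cultures was -0.78 ± 0.15 (adjusted p = 0.00759) and its arrays lay below those of cells alone with Hsf1 null MEFs and above them with WT MEFs. Dhcr7, the reductase of the last step to cholesterol, had the same order of groups, at 9.77 and 9.81 with Hsf1 null MEFs, 10.34 and 10.43 with WT MEFs and 10.21 and 9.97 alone (-0.60 ± 0.10, adjusted p = 0.00425). Sqle was at 14.39 and 14.23 with Hsf1 null MEFs, against 14.71 and 15.001 with WT MEFs (-0.54 ± 0.12, adjusted p = 0.0153), and Tm7sf2 differed by -0.53 ± 0.10 (adjusted p = 0.00675). Idi1, Stard4 and the desaturase Scd1 completed the 11, with -0.69 ± 0.15, -0.65 ± 0.17 and -0.41 ± 0.11. Members with positive values were Insig2 (0.27), Acaca (0.27) and the ATP citrate lyase Acly (0.07), none past the threshold, and 1 gene was higher at an unadjusted p under 0.05. The count fell to 3 without replicate B of D2A1 cells with WT MEFs and to 4 without replicate B of those with Hsf1 null MEFs. It was 9 after subtraction of the partner share and 15 with the slide as a block. In both settings the median of the 32 genes was -0.35 relative to that of all genes, and the shares of all genes called are not given here.

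Hsf1 null MEFs had lower levels of cholesterol synthesis genes than WT MEFs, alone and after co-culture. In this and the following MEF comparisons too, genotype cannot be told apart from other differences between the null and WT MEFs. In MEFs alone 13 of the 32 genes were lower and 2 higher, against 15.9% and 17.9% of all genes, with a median of -0.29. In MEFs from co-culture 19 were lower and 0 higher, against 14.8% and 14.7%, with a median of -0.49, and at an unadjusted p under 0.05 the counts were 21 lower and 0 higher. These comparisons used different arrays but came from the same fit with a shared variance, and both set null against WT MEFs. All 13 genes lower in MEFs alone were also lower after co-culture, which is 68.4% of the 19. The matching overlap over all genes is not given here. By role, 5 of 7 mevalonate enzymes and 6 of 11 sterol enzymes were lower in MEFs alone, against 1 of 6 regulators or carriers and 1 of 8 fatty acid enzymes. After co-culture the counts were 6 of 7, 8 of 11, 3 of 6 and 2 of 8.

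Sc4mol (now Msmo1), the sterol methyl oxidase, differed most. Its level was 14.59 and 14.13 in Hsf1 null MEFs from co-culture, against 16.33 and 15.81 in WT MEFs from co-culture, and 14.32 and 14.18 in Hsf1 null MEFs alone, against 15.53 and 15.50 in WT MEFs alone. All 4 null arrays lay below all 4 WT arrays. It was 3.27-fold lower in null MEFs after co-culture (-1.71 ± 0.20, adjusted p = 0.000103) and 2.40-fold lower in null MEFs alone (-1.26 ± 0.20, adjusted p = 0.000588). Nsdhl, the next enzyme of the same demethylation, was at 8.94 and 8.71 in null MEFs, against 9.92 and 9.86 in WT MEFs after co-culture, and 8.93 and 9.01 against 9.84 and 9.92 in null and WT MEFs alone. The null arrays were again all below the WT arrays, by -1.06 ± 0.13 and -0.91 ± 0.13 in the same order. Lss had 10.69 and 11.01 in null against 11.82 and 11.82 in WT MEFs after co-culture, and 11.17 and 10.85 in null against 12.05 and 11.82 in WT MEFs alone. Sqle had 14.74 and 14.72 in null against 15.34 and 15.40 in WT MEFs after co-culture, and 14.57 and 14.70 in null against 15.29 and 15.38 in WT MEFs alone. For both genes no null array reached a WT array, and the differences were -0.97 ± 0.16 and -0.64 ± 0.12 after co-culture and -0.92 ± 0.16 and -0.70 ± 0.12 alone.

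In the mevalonate steps Mvk showed the largest genotype difference in MEFs alone. It was at 13.36 and 13.58 in null MEFs, against 14.59 and 14.79 in WT MEFs, or 2.33-fold lower (-1.22 ± 0.12, adjusted p = 2.09e-05). After co-culture it was at 13.35 and 13.36 in null MEFs, against 14.27 and 14.43 in WT MEFs (-0.99 ± 0.12, adjusted p = 0.000144). The spread within each group was far smaller than either difference. Mvd was at 11.37 and 11.59 in null against 12.39 and 12.82 in WT MEFs after co-culture, and 11.51 and 11.82 in null against 12.53 and 12.71 in WT MEFs alone (-1.12 ± 0.16 and -0.95 ± 0.16). Acat2, Hmgcs1 and Fdps were lower in both settings too, between -0.42 and -0.71. Pmvk passed after co-culture (-0.44) and had -0.26 in MEFs alone, which did not pass. Idi1 passed in neither, at -0.23 and 0.06, although it was among the genes lower in D2A1 cells with null MEFs.

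Stard4 was the regulator or carrier with the largest genotype difference in both settings. It was at 9.90 and 9.57 in null against 10.80 and 10.71 in WT MEFs after co-culture, and at 9.95 and 9.98 in null against 10.74 and 10.76 in WT MEFs alone. The differences were -1.02 ± 0.17 (adjusted p = 0.000962) and -0.79 ± 0.17 (adjusted p = 0.00382), with no overlap. Srebf1 and Srebf2 were lower after co-culture (-0.49 ± 0.12 and -0.51 ± 0.16), and their values in MEFs alone, -0.29 and -0.03, did not pass. Both calls after co-culture were lost on subtraction of the partner share (-0.38 and -0.55, adjusted p = 0.0579 and 0.0520 in limma). Insig1 had -0.42 and -0.29 and passed in neither without subtraction. After subtraction Insig1 was lower in null MEFs from co-culture (-0.69, adjusted p = 0.0392 in limma).

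Among the fatty acid enzymes 1 passed the threshold in each direction in MEFs alone. Fads1, a desaturase of polyunsaturated fatty acid synthesis, was lower in null MEFs alone, at 13.22 and 13.17 against 13.72 and 13.72 in WT MEFs (-0.53 ± 0.11, adjusted p = 0.00407), and after co-culture (-0.50 ± 0.11). Scd1 was at 12.999 and 12.95 in null against 13.60 and 13.70 in WT MEFs after co-culture (-0.68 ± 0.11, adjusted p = 0.000873), and at 12.75 and 12.86 in null against 13.09 and 13.12 in WT MEFs alone, where it did not pass. Elovl6 ran the other way in MEFs alone, at 13.91 and 13.84 in null against 13.62 and 13.50 in WT MEFs (0.32 ± 0.11, adjusted p = 0.0428). That call was close to the threshold: it passed in 11 of 21 other settings and in 6 of the 14 fits that left out 1 array, and it was lost without either replicate of null MEFs alone, WT MEFs alone, WT MEFs from co-culture or D2A1 cells with WT MEFs. Dhcr7 was the other gene higher in null MEFs alone, at 10.89 and 10.86 against 10.48 and 10.49 in WT MEFs (0.39 ± 0.10, adjusted p = 0.0121), and it was lost without replicate A or B of WT MEFs alone or replicate A of null MEFs alone. Neither was higher after co-culture (-0.05 and -0.05). Fasn, Acaca and Acly had values between -0.23 and -0.01 in both settings and did not pass.

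**Figure D4:**
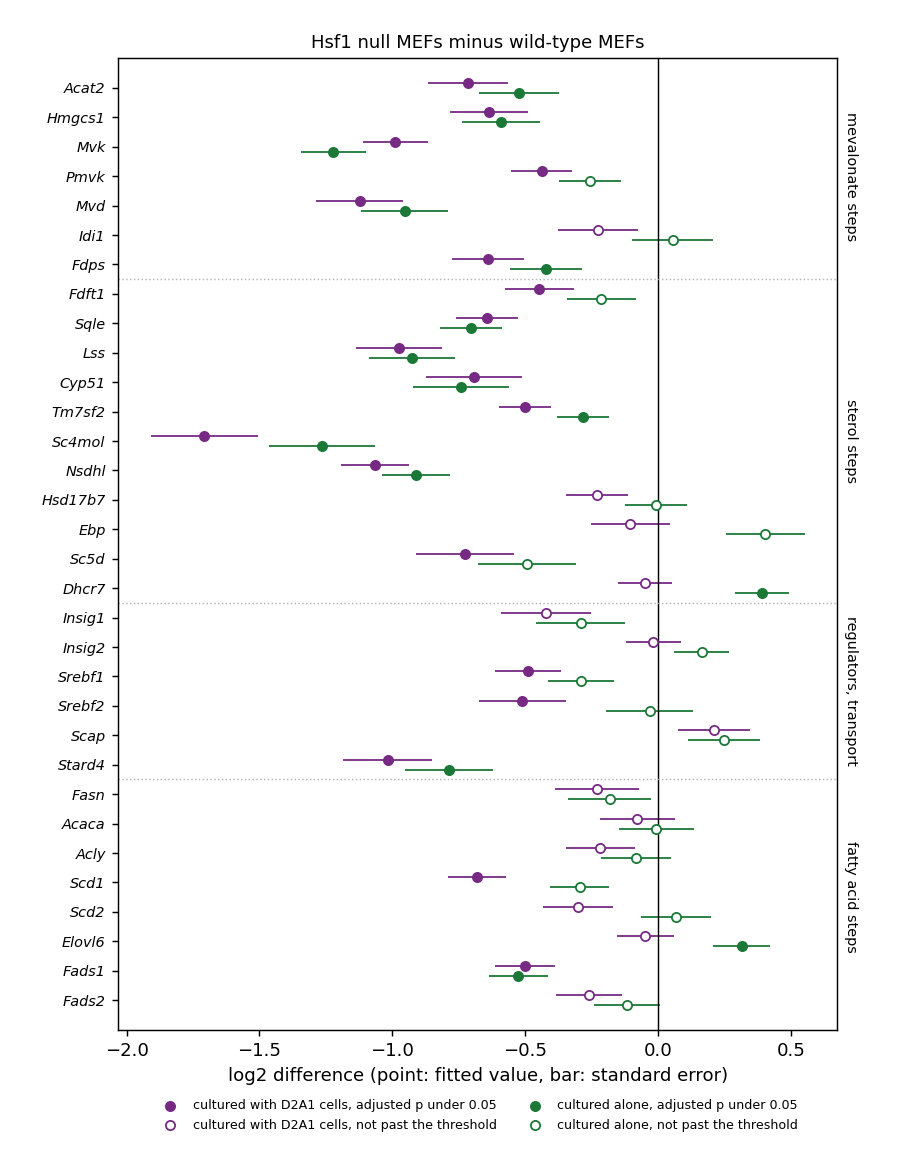
Fitted log2 difference of each of the 32 genes (rows, by role) in Hsf1 null minus WT MEFs, with bars of 1 standard error. Purple points (from co-culture with D2A1 cells) are filled for 19 genes and green points (alone) for 15, 13 of them left of 0; the values farthest left belong to Sc4mol.

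**Figure D5:**
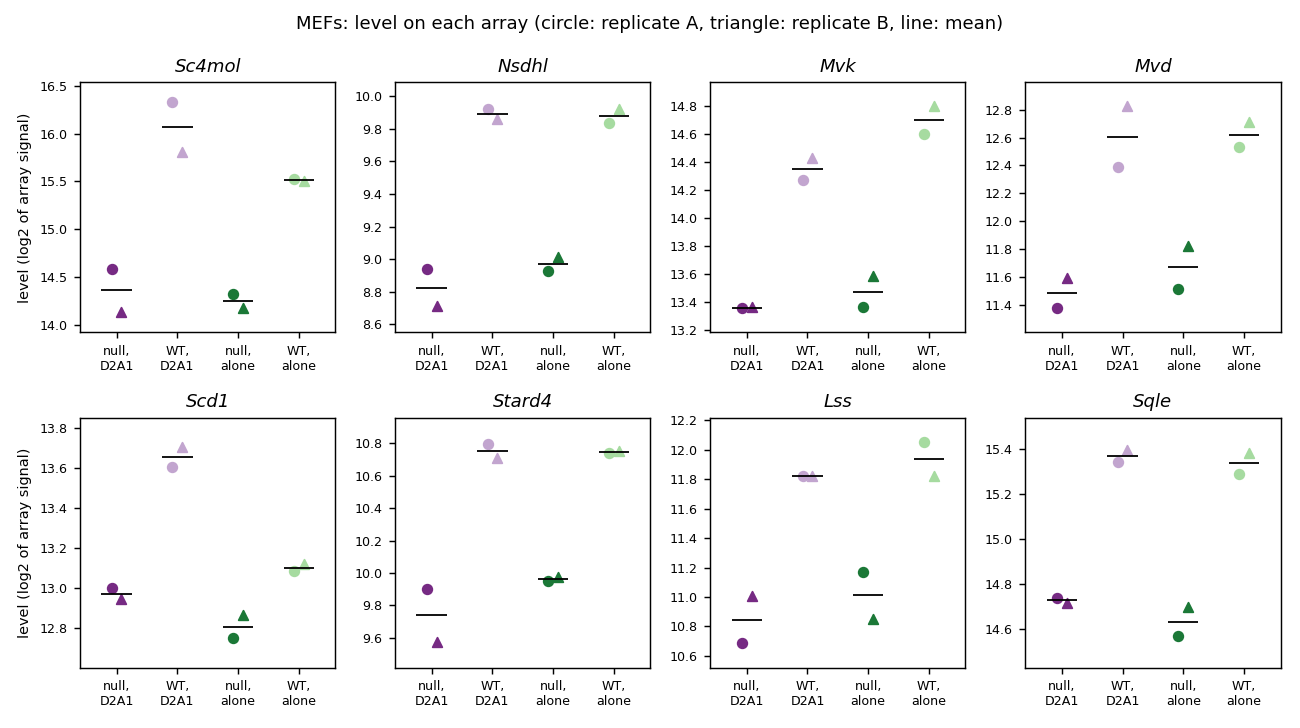
Log2 level on each MEF array for the 8 genes with the smallest p in Hsf1 null against WT MEFs from co-culture (circles replicate A, triangles replicate B, lines group means; each panel has its own vertical axis). All null arrays lie below all WT arrays in the panels, for MEFs from co-culture and for MEFs alone. The genes were chosen by p on the arrays of MEFs from co-culture.

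The WT MEF fraction from co-culture held 41.6% and 43.7% tumor signal by the estimate above, so its values mix both cell types. After subtraction of the partner share 20 genes were lower and 0 higher in null against WT MEFs from co-culture, with a median of -0.69 against 0.12 over all genes. The genes called were not all the same as before: Srebf1 and Srebf2 dropped out, and Insig1, Hsd17b7 and Fads2 entered. The share of all genes called lower after subtraction is not given here. Leaving out replicate A or B of WT MEFs alone left 9 calls each in MEFs alone, and leaving out replicate B of WT MEFs from co-culture left 12 in the co-cultured MEFs. Interferon-stimulated genes also differed between null and WT MEFs, with 15 of 16 higher in null MEFs alone and 16 of 16 after co-culture. Of 14 fibroblast markers, 10 differed between null and WT MEFs in each setting, 8 and 9 of them lower in null MEFs. The part of the interferon-stimulated genes and of the fibroblast markers in the result was not tested.

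Co-culture itself moved few of these genes in MEFs. In null MEFs 1 was lower with D2A1 cells than alone, against 0.332% of all genes, and 0 were higher, against 2.81%. It was Tm7sf2, at 11.16 and 11.34 with D2A1 cells, against 11.70 and 11.68 alone (-0.44 ± 0.10, adjusted p = 0.0356), and the call passed in 8 of 22 other settings. It was lost after subtraction of the partner share, and it passed in 5 of the 14 fits that left out 1 array. The arrays whose absence ended it were replicate A of null MEFs from co-culture and both replicates of null MEFs alone, WT MEFs from co-culture, WT MEFs alone and D2A1 cells with WT MEFs. In WT MEFs 1 was higher, against 6.31% of all genes, and 0 were lower, against 4.2%. It was Scd1, with the levels given above (0.55 ± 0.11, adjusted p = 0.00895), and the call was lost without replicate B of WT MEFs from co-culture or either replicate of WT MEFs alone. After subtraction of the partner share 3 genes were higher in WT MEFs from co-culture than alone, Sc4mol (0.83), Scd1 (0.79) and Fads1 (0.41), and the median of the 32 genes was 0.30, against 0.01 without subtraction. The test of the difference between these responses (null MEF response minus WT MEF response) called 0 of the 32 genes in limma, against 1.07% of all genes higher and 1.96% lower. At an unadjusted p under 0.05, 0 were higher and 4 lower, and 28 of 32 values were negative with a median of -0.19. After subtraction of the partner share the median was -0.40, against 0.09 over all genes, with 0 of the 32 genes called. For Sc4mol the difference was -0.44 ± 0.28, with a 95% interval of -1.07 to 0.19.

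D2A1 cells and MEFs grown alone were compared next. Of the 32 genes, 4 were higher and 13 lower in D2A1 cells than in WT MEFs, against 27.8% and 23.6% of all genes. Against null MEFs 10 were higher (31.2%) and 9 lower (28.1%), against 27.3% and 25.4% of all genes. These counts are near the shares of all genes, so they do not set the 32 genes apart. Both comparisons use the same D2A1 arrays. Tm7sf2 stood out, at 9.68 and 9.63 in D2A1 cells, against 11.70 and 11.68 in null MEFs and 11.93 and 12.02 in WT MEFs, or 5.003-fold lower than in WT MEFs (-2.32 ± 0.10, adjusted p = 1.97e-08).

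Genes of the mevalonate steps accounted for 6 of the 13 genes lower in D2A1 cells than in WT MEFs. Mvk was at 13.56 and 13.66 in D2A1 cells, 13.36 and 13.58 in null MEFs and 14.59 and 14.79 in WT MEFs, so it lay with the null MEFs (0.14 against null and -1.08 against WT MEFs). Idi1 was at 12.82 and 12.90 in D2A1 cells and lower than in either kind of MEF (-1.04 against null and -0.98 against WT MEFs). Hmgcs1 (-1.11), Mvd (-1.05), Acat2 (-0.70), Sqle (-0.56) and Fads1 (-0.88) were also lower in D2A1 cells than in WT MEFs. Higher in D2A1 cells than in WT MEFs were Srebf2, at 11.19 and 11.02 in D2A1 cells against 10.26 and 10.39 in WT MEFs (0.78), Insig2 (0.56), Ebp (0.52) and Acaca (0.37). These 4 genes, picked by p on the same arrays, had no overlapping arrays between D2A1 cells and WT MEFs. Sc4mol was at 15.56 and 15.54 in D2A1 cells, against 15.53 and 15.50 in WT MEFs and 14.32 and 14.18 in null MEFs, and was higher than in null MEFs (1.30 ± 0.20, adjusted p = 0.000277). Stard4 (0.96), Nsdhl (0.64) and Sc5d (0.66) were likewise higher in D2A1 cells than in null MEFs, and Dhcr7 (-0.78), Scap (-0.49), Hsd17b7 (-0.45) and Elovl6 (-0.35) were lower.

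Other genes of the pathway were followed in lists. In D2A1 cells with Hsf1 null MEFs against cells alone, where 10.1% of all genes were higher and 9.6% lower, 3 of 12 other genes of sterol and isoprenoid synthesis were lower and 0 higher. The farnesyltransferase subunits Fntb (-0.48 ± 0.14) and Fnta (-0.33 ± 0.10) were among them, and Fntb was at 7.57 and 7.52 with Hsf1 null MEFs against 7.94 and 8.13 alone. Of 11 genes of sterol sensing and SREBP processing, 1 was lower and 1 higher. Tmem97, an endoplasmic reticulum protein regulated with sterols, was at 12.70 and 12.51 with Hsf1 null MEFs against 13.42 and 13.49 alone (-0.85 ± 0.12), and Npc2, which moves cholesterol out of lysosomes, was at 15.71 and 15.87 with Hsf1 null MEFs against 14.002 and 13.998 alone (1.79 ± 0.10, adjusted p = 5.14e-07).

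Of 20 genes of sterol uptake, efflux and storage, 3 were higher and 0 lower in the same comparison, and with so few genes the higher share is near that of all genes. Mylip, the ubiquitin ligase that degrades the LDL receptor and a target of the liver X receptors, was at 9.31 and 9.60 with Hsf1 null MEFs, 9.79 and 9.76 with WT MEFs and 8.20 and 8.21 alone (1.25 ± 0.11 with Hsf1 null and 1.57 ± 0.11 with WT MEFs). Mylip was therefore high in both co-cultures, and in MEFs alone it read 9.71 and 9.68 (null) and 9.88 and 9.89 (WT). Vldlr, a lipoprotein receptor, was at 12.49 and 12.81 with Hsf1 null MEFs against 11.86 and 11.90 alone (0.77 ± 0.12). Ch25h, the cholesterol hydroxylase that is an interferon-stimulated gene, was not well above background in D2A1 cells alone and at least 2.55-fold higher with Hsf1 null MEFs (adjusted p = 0.00551). Its arrays read 5.84 and 6.86 with Hsf1 null MEFs, against 4.81 and 5.19 alone, and 5.97 and 6.01 in null MEFs alone.

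Of 22 tested genes of other fatty acid and glycerolipid synthesis, 3 were higher and 2 lower in D2A1 cells with Hsf1 null MEFs than alone, both near the shares of all genes (10.1% and 9.6%). Scd3, a further stearoyl-CoA desaturase, was at 8.21 and 7.97 with Hsf1 null MEFs against 8.91 and 9.04 alone (-0.88 ± 0.12), and Acss2, the acetyl-CoA synthetase, was lower too (-0.50 ± 0.16, adjusted p = 0.0476). Pparg, the adipogenic nuclear receptor, was at 8.76 and 9.71 with Hsf1 null MEFs against 7.02 and 6.93 alone and at 11.003 and 10.96 in null MEFs alone, and replicate B, with the larger MEF share, was the higher one. Elovl7 (1.03 ± 0.20) and Acacb (0.71 ± 0.18) were the others higher. Of 16 genes of fatty acid oxidation, 2 were higher, Pdk4 (at least 9.20-fold, not well above background in cells alone) and Cpt1a (0.53 ± 0.13), and Acadm was lower (-0.32 ± 0.10). Cross-hybridization between the Scd genes was not tested.

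In Hsf1 null against WT MEFs alone, these lists had 2 higher and 2 lower of 12 (sterol and isoprenoid synthesis), 0 and 2 of 11 (sensing and processing), 3 and 6 of 20 (uptake, efflux and storage), 6 and 4 of 22 (fatty acid and glycerolipid synthesis) and 6 and 1 of 16 (oxidation). Of all genes 17.9% were higher and 15.9% lower, so several of these counts are near the shares of all genes. Cyb5r3, the reductase that passes electrons to sterol and fatty acid enzymes, was lower in null MEFs alone (-1.10 ± 0.13) and after co-culture (-1.15 ± 0.13), as was Tmem97 (-0.49 ± 0.12 and -0.45 ± 0.12). Nr1h3, which encodes a liver X receptor, was at 9.91 and 10.13 in null MEFs alone, against 7.11 and 7.13 in WT MEFs alone (2.90 ± 0.16, adjusted p = 3.01e-07). After co-culture it was at 9.83 and 10.21 in null against 9.55 and 9.76 in WT MEFs, and the difference did not pass the threshold.

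The result rested on the authors' deposited value table. In rescaled scanner intensities, where 2 arrays with faulty files (replicate A of D2A1 cells with Hsf1 null MEFs and of D2A1 cells alone) had to be left out, the median of the 32 genes was -0.75 in D2A1 cells with Hsf1 null MEFs against alone, beside -0.19 over all genes, but 0 genes passed the threshold. With normexp and quantile normalization of the same 12 arrays 6 genes were lower. In these settings each of those 2 groups had 1 array, assumed to vary like the other groups. Of the 12 members with several probes, 10 had probes of 1 sign on slide B in this comparison and 10 on both slides in null against WT MEFs from co-culture. In the MEF comparison Tm7sf2 and Srebf2 had only 1 probe value on slide A, so their probes could not disagree there. Insig2 counted as agreeing within each slide, although its sign was negative on slide A and positive on slide B. In the D2A1 comparison the exceptions were Fdft1, the squalene synthase, with probes from -0.20 to 2.68, and Hsd17b7, with probes from -0.28 to 0.08. Hsd17b7 was among the genes called lower there, and Fdft1 was not.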

How the data were processed

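Labelled cRNA from each sample was hybridised to an Agilent array of 1 colour. The authors' deposited table holds log2 values for 36413 gene names after normalization whose method is not given in the sources used here, with array medians of 6.34 to 6.40. Scanner intensity files, made with Agilent Feature Extraction (9.1 per the submitters' processing notes, a later version per the file headers), gave the background flags and the probes' gene names. Replicates A lay on slide 1 and replicates B on slide 2, per the file headers. Scanner files of 2 arrays (replicate A of tumor cells with Hsf1 null MEFs and of tumor cells alone) had 36.8% and 32.1% outlier flags against at most 5.74% elsewhere and were taken as faulty, whereas their columns of the deposited log2 table correlated with the other arrays at 0.935 or above.

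Genes whose probes were well above background on every sound array of at least 1 group were tested (25896). A linear model over all 14 arrays and 7 groups was fitted with limma 3.58.1 in R 4.3.3, without a block, and p-values were adjusted by the Benjamini-Hochberg method over all tested genes within each comparison, at a threshold of 0.05. The deposited table has no counts, and 2 arrays a group limit the precision. An exact permutation test of 2 against 2 cannot go below 0.333. The fit was tested on simulated data.

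Partner share was estimated from genes at least 32-fold higher in the partner fraction from co-culture than in the sample's own cell type grown alone. The partner grown alone was not used. The replicate letter as a block was an alternative: of 21 pairs of groups, 20 had A minus B correlations above 0.1 (range 0.0920 to 0.599). Alternatives also covered scanner intensities scaled to the percentile 75, normexp (offset 50) with quantile normalization, filters, partner subtraction and leaving out each array. The 32 genes and the gene lists were chosen with earlier results of these data known. Genes named with values for each array were up to 8 per direction and comparison with the smallest p past the threshold, those running against their role, and, from the other lists, up to 4 per direction, except a gene not reported here. Promoters come from RefSeq windows (GRCm38.p6).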

Additional observations from a re-analysis of the deposited data

Results flagged for a closer look

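None of the 32 genes met a criterion for a closer look, and groups of 2 arrays are too small to show an outlying array. Among the other pathway genes, 3 responded differently to co-culture in Hsf1 null and WT MEFs by the test of the difference itself (null MEF response minus WT MEF response). These were Nr1h3 with -2.53 ± 0.22 (adjusted p = 0.000156), the sterol exporter Abcg1 with -2.13 ± 0.23 (adjusted p = 0.000499) and the cholesterol ester hydrolase Nceh1 with -0.999 ± 0.181 (adjusted p = 0.0133). Abcg1 was at 8.44 and 8.60 in null MEFs from co-culture, against 6.34 and 6.72 in null MEFs alone, and at 10.11 and 10.04 in WT MEFs from co-culture, against 5.90 and 6.01 in WT MEFs alone. In D2A1 cells alone Abcg1 was at 10.64 and 10.73, and the WT MEF fraction held the larger tumor share. After subtraction of the partner share the difference was -1.36 for Abcg1 (adjusted p = 0.0796), -0.15 for Nceh1 (adjusted p = 0.904) and 2.71 for Nr1h3 (adjusted p = 0.000158), so the calls for Abcg1 and Nceh1 ended and Nr1h3 changed sign. In scanner intensities of the 12 sound arrays none of these 3 genes passed (adjusted p = 0.112 for Abcg1, 0.839 for Nceh1 and 0.0607 for Nr1h3, in limma), nor with all 14 files, and with normexp and quantile normalization Abcg1 did not pass (adjusted p = 0.0830). Nceh1 was also lost without replicate B of WT MEFs from co-culture (adjusted p = 0.0785), replicate A of WT MEFs alone (0.0662) or replicate B of null MEFs alone (0.0706).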

How the results depend on the processing

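Counts of the 32 genes past the threshold are given as D2A1 cells with Hsf1 null MEFs against alone (16), with WT MEFs against alone (3), with Hsf1 null against WT MEFs (11), null against WT MEFs alone (15) and from co-culture (19), co-culture against alone in WT MEFs (1) and null MEFs (1), and D2A1 cells against WT (17) and null MEFs (19). With each cell type fitted alone the counts were 10, 1 and 3 in the 3 D2A1 comparisons and 0 for co-culture of null MEFs. In scanner intensities of the 12 sound arrays they were 0, 0, 0, 3, 2, 0, 0, 1 and 2, and with all 14 files 0 in the first 7 and 1 and 1 in the last comparisons. With normexp and quantile normalization of the 12 arrays they were 6, 0 and 7 in the D2A1 comparisons, 0 for co-culture of null MEFs, and 10 and 11 for D2A1 cells against WT and null MEFs. The replicate block (the slide, which the replicate letters also mark) gave 21, 4 and 15 in the D2A1 comparisons and 18 and 19 for null against WT MEFs, and 2 for co-culture of WT MEFs. Partner subtraction gave 3 for co-culture of WT MEFs and 0 for null MEFs, and no filter gave 0 for null MEFs. The shares of all genes called in these settings are not given here, so a general rise or fall in calls is not separated from these counts. Leaving out 1 array at a time gave 6 to 17, 1 to 3, 3 to 13, 9 to 16, 12 to 19, 0 to 1, 0 to 1, 13 to 17 and 11 to 19, in the order above, and 0 for the difference of the MEF responses, which stayed at 0 in every setting run. Without replicate B of D2A1 cells alone, or replicate A or B of null MEFs alone, the last count was 12, 11 and 11. Differences that reversed with all 14 scanner files, 2 of them faulty, were Acaca (1.32) and Fads2 (0.30) in D2A1 cells with WT MEFs against alone, Elovl6 (0.14), Lss (0.24) and Srebf2 (0.54) with Hsf1 null MEFs against alone, Acaca (-1.52) in D2A1 cells against WT MEFs and Lss (-0.88) in D2A1 cells against null MEFs. Nr1h3 in the difference of MEF responses reversed to 2.71 after partner subtraction. The share of higher genes among all genes called, 51.2% with Hsf1 null MEFs against alone, 59.6% with WT MEFs and 56.7% between the co-cultures, was 94.1%, 92.02% and 91.3% in scanner intensities of 12 arrays and 67.2%, 67.7% and 72.9% with normexp. For co-culture it was 60.0% in WT and 89.4% in null MEFs, and 88.4% and 99.7% in those scanner intensities, and for D2A1 cells against WT MEFs 54.1% and 40.5%. After partner subtraction it was 19.3% for co-culture of WT MEFs and 66.9% for null MEFs, 44.8% between the D2A1 co-cultures, 62.3% for null against WT MEFs from co-culture (49.98% before) and 84.5% for the difference of the MEF responses (35.2% before). The cause of these changes was not tested, except that fewer arrays entered the fits that leave arrays out.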
